A study of Mus musculus with 24 samples.

Results

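Chemotactic receptors sense gradients of chemokines, complement fragments, formylated peptides and oxysterols and steer phagocytes along them. Most couple to inhibitory G proteins, which release phosphoinositide 3-kinase and Rac signals that drive actin at the leading edge, and arrestins and RGS proteins then end the signal. Microglia, the resident macrophages of the brain, use them to reach sites of injury, infection and plaque. The set described here holds 9 receptor genes, chosen by name: the formyl peptide receptors Fpr1 and Fpr2, the complement receptors C5ar1 and C3ar1, the chemokine receptors Ccr1, Cxcr2 and Cxcr4, the chemerin-binding receptor Ccrl2 and the oxysterol receptor Gpr183. All 9 were found among the 13290 genes of the deposited count tables.

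RNA was sequenced from BV2 cells, an immortalised mouse microglial line, and from the extracellular vesicles (EVs) that BV2 cells shed. Each compartment was sampled after 72 h with 100 ng/mL of the bacterial endotoxin lipopolysaccharide (LPS), with 50 ng/mL of interleukin-10 (IL-10) or with 50 ng/mL of transforming growth factor-β (TGF-β), and without treatment (control). The 24 libraries formed 8 groups of 3. The labels do not say whether a group's 3 libraries are separate cultures. The p-values therefore speak only of the spread among these libraries, part of which may be technical, and all groups come from 1 transformed line. Levels are counts scaled to the library total (CPM), with means ± SD of n = 3 libraries. Fold changes and adjusted p-values were taken from the quasi-likelihood test of edgeR, with Benjamini-Hochberg adjustment over all genes tested and a threshold of 0.05.

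Depth was 26.14 to 42.13 M counts per library in cells and 3.02 to 17.98 M in EVs. A gene without a count could still be present at up to 0.0712 to 0.115 CPM in a cell library, and at up to 0.167 to 0.994 CPM in an EV library (3 counts each, counting error only). Of 12 macrophage markers, 11 were listed, and their summed level was 6800 to 9080 CPM in cells, while Cx3cr1 was at or near 0 outside the TGF-β group. The LPS EV libraries stood apart: 0.49% to 4.42% of the listed genes had no count there, against 19.58% to 50% in the other EV libraries. Of the 401 genes without a count in LPS cells, 98.5% had counts in all 3 LPS EV libraries, at a median of 23.3 CPM. Control EV library 1 was the deepest EV library and held counts of 7 receptors, while the other control EV libraries held counts of 4 each.

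Ccrl2, Fpr1 and Fpr2 were at or near 0 in control cells and were measured after LPS, and the sequences around their starts are shown for that reason. Each window runs from 250 bases before to 50 after a RefSeq start (GRCm38.p6), and capitals mark matches to motifs searched on both strands. The motifs were the NF-κB consensus (kappaB), the AP-1 motif TGANTCA, the STAT motif TTCNNNGAA and the PU.1 motif GAGGAA.
Ccrl2, chr9:111057469-111057768, minus strand: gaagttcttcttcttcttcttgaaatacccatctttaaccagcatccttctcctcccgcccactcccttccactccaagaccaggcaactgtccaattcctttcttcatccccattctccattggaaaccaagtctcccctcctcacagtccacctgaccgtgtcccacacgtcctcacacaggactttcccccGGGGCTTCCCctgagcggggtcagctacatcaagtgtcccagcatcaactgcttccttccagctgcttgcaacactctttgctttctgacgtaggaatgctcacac
Fpr1, chr17:17883890-17884189, minus strand: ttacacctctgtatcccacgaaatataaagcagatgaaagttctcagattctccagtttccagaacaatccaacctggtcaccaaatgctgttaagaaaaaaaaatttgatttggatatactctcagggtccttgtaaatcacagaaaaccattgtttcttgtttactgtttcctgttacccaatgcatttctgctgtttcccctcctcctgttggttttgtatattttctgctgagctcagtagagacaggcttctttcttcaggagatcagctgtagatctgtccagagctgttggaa
Fpr2, chr17:17887574-17887873, plus strand: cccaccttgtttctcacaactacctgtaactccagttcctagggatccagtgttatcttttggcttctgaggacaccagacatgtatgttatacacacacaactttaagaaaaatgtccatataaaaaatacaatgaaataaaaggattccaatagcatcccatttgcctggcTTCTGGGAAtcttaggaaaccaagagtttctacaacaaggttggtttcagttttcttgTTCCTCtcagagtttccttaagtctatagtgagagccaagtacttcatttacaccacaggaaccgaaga

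The Ccrl2 window, 1 of 3 that RefSeq gives for the gene, held a kappaB match 56 bases before the start, as did 4.51% of the 32841 promoter windows of the same length. The Fpr2 window held a STAT match 77 bases before the start and a PU.1 match 19 bases before it on the opposite strand. STAT matches were present in 8.3% of all windows and PU.1 matches in 28.28%. The Fpr1 window and the other Ccrl2 windows held none of the 4 motifs, and the shares are per window, not per gene. Among the remaining receptors C3ar1 held an AP-1 match (in 7.81% of all windows), Ccr1 and Cxcr2 held PU.1 matches, and C5ar1, Cxcr4 and Gpr183 held none. Fpr1 and Fpr2 lie head to head on chromosome 17, on opposite strands, with starts 3884 bp apart. In GENCODE M21 (GRCm38) Fpr1 spans 17876471 to 17883940 and Fpr2 spans 17887824 to 17893952, and Fpr2 shares 48 exon bases with its paralog Fpr3. The authors' counting could thus split reads between close members of the Fpr family, and Fpr2 values are uncertain to that extent.

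In cells, LPS divided the receptors. Fpr1, Fpr2 and Ccrl2 appeared, C5ar1 rose, and Ccr1, Cxcr2, Cxcr4, Gpr183 and C3ar1 fell. TGF-β gave another division: Cxcr2, Cxcr4, Gpr183 and C3ar1 rose and Ccr1 fell. After IL-10, C3ar1 alone passed the test. In bulk libraries a change in the number of cells of a type and a change in RNA per cell cannot be told apart.

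**Figure D1:**
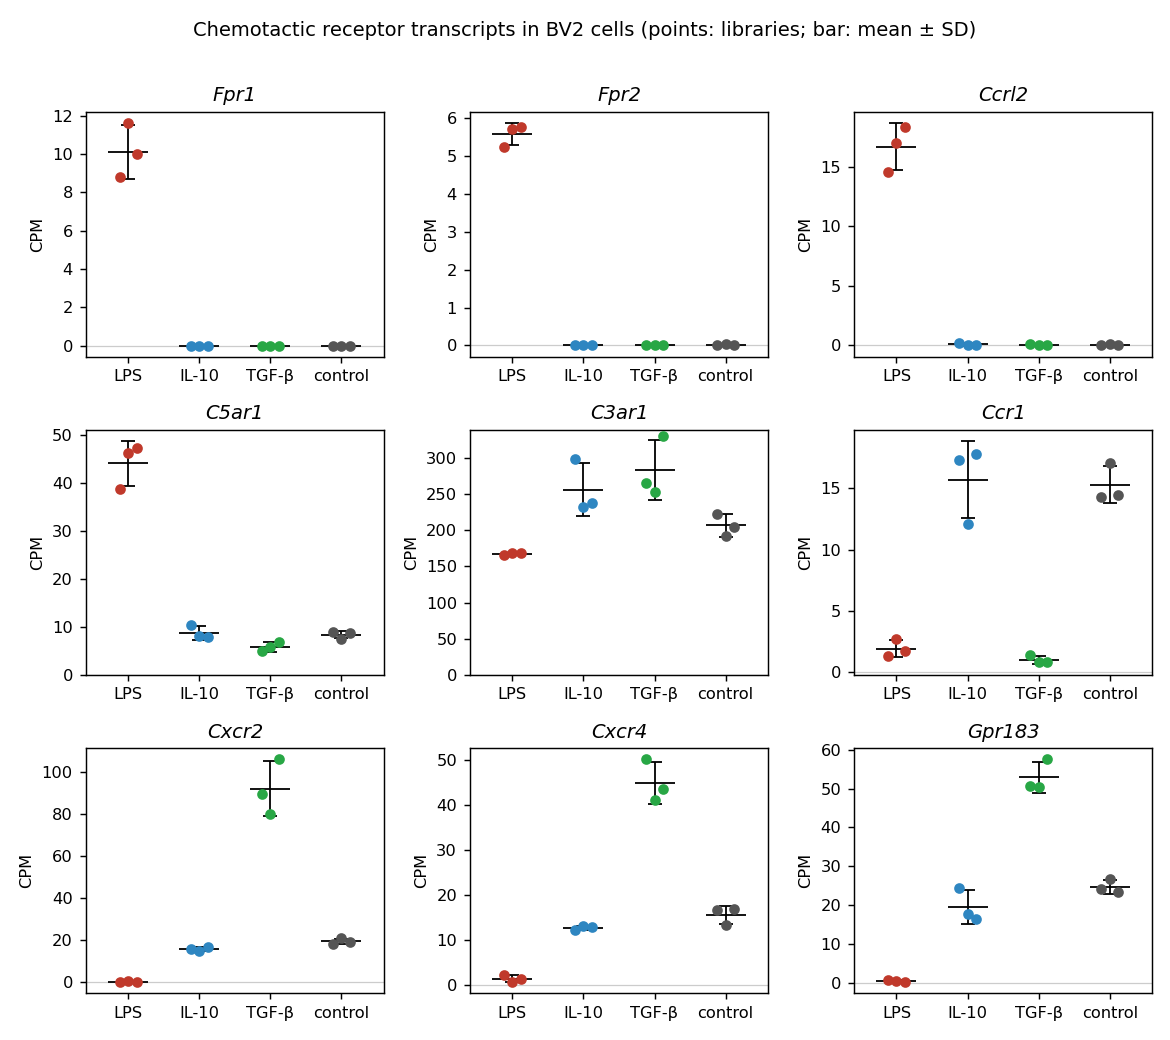
CPM of the 9 receptor genes in BV2 cells treated with LPS, IL-10 or TGF-β and in control cells; each point is 1 library, and the bars show the mean ± SD of 3 libraries. Fpr1, Fpr2 and Ccrl2 are seen in LPS cells at 5.25 to 18.4 CPM, whereas Cxcr2, Cxcr4 and Gpr183 are highest in TGF-β cells and lowest in LPS cells.

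Fpr1 is the high-affinity receptor for formylated peptides released by bacteria and damaged mitochondria. Its level was 8.78, 11.6 and 9.98 CPM in the 3 LPS cell libraries, and no count was found in any IL-10, TGF-β or control cell library. It was at least 98.8-fold higher in LPS cells than in control cells, taking 3 counts per library as the floor of the control group (edgeR adjusted p = 1.36e-11). Fpr2, which in mouse responds to formyl peptides, serum amyloid A and annexin A1, had 5.25, 5.72 and 5.77 CPM in LPS cells. A single Fpr2 count was found elsewhere in the cells, in control library 2 (0.0313 CPM). The summed counts per total gave a ratio of LPS to control of 490, with an exact counting interval of 87.7 to 19400 (edgeR adjusted p = 9.81e-11).

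Ccrl2 binds chemerin without coupling to G proteins and presents it to neighbouring cells. It was measured at 14.6, 17 and 18.4 CPM in LPS cells. In IL-10 cells it had 0.193, 0.0288 and 0 CPM, in TGF-β cells 0.122, 0 and 0 CPM, and in control cells 0, 0.125 and 0 CPM. Every LPS library lay far above every other cell library, and the other 3 groups overlapped at the limit of detection. The ratio of LPS to control was 364, with a counting interval of 142 to 1340 that rests on 4 control counts, all in library 2 (edgeR adjusted p = 2.33e-12). Fpr1, Fpr2 and Ccrl2 passed the filter on low counts through the LPS group alone, so those that were tested had to differ and their number is not read as a result.

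C5ar1 and C3ar1 are the receptors of the anaphylatoxins, the small fragments cut from complement C5 and C3. C5ar1 had 38.6, 46.1 and 47.2 CPM in LPS cells, 10.4, 7.99 and 7.79 CPM in IL-10 cells, 4.92, 5.7 and 6.9 CPM in TGF-β cells, and 8.88, 7.49 and 8.67 CPM in control cells. The LPS libraries stood clear of all others, the IL-10 libraries overlapped the controls, and the TGF-β libraries lay just below them. With IL-10 the log2 fold change of C5ar1 was 0.22 (edgeR adjusted p = 0.376). C5ar1 rose 5.03-fold with LPS (log2 fold change 2.33, SE 0.12, edgeR adjusted p = 8.85e-12). With TGF-β its log2 fold change of -0.51 missed the threshold (SE 0.18, edgeR adjusted p = 0.0527). It passed with DESeq2 (adjusted p = 0.0461), with limma-voom (0.0158), with all 12 cell libraries in 1 edgeR fit (0.0166) and without TGF-β library 3 (0.0284).

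C3ar1 moved the other way with LPS. Its level was 166, 168 and 168 CPM in LPS cells, 298, 232 and 238 CPM in IL-10 cells, 265, 253 and 330 CPM in TGF-β cells, and 223, 192 and 204 CPM in control cells. The 4 groups formed a low LPS group, an intermediate control group and a high pair of IL-10 and TGF-β groups that overlapped each other and no other group. Relative to control, C3ar1 fell by 0.37 on the log2 scale with LPS (edgeR adjusted p = 0.000145). It rose 1.38-fold with IL-10 (adjusted p = 0.00137) and 1.37-fold with TGF-β (adjusted p = 0.00216), both by edgeR. These were the smallest called changes of the set against control cells, and C3ar1 was its most abundant transcript.

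Ccr1, a receptor for Ccl3, Ccl5, Ccl6 and Ccl9, was low with both LPS and TGF-β. It had 1.35, 2.69 and 1.71 CPM in LPS cells, 17.3, 12.1 and 17.8 CPM in IL-10 cells, 1.41, 0.803 and 0.866 CPM in TGF-β cells, and 14.3, 17.1 and 14.5 CPM in control cells. The LPS and TGF-β libraries overlapped each other and lay below all IL-10 and control libraries. Ccr1 fell 8.5-fold with LPS (log2 fold change -3.09, SE 0.22, edgeR adjusted p = 8.04e-10) and 14.7-fold with TGF-β (log2 fold change -3.88, SE 0.23, adjusted p = 5.2e-08). With IL-10 its log2 fold change was 0.20 (edgeR adjusted p = 0.363).

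Cxcr2 is the receptor for the neutrophil-attracting CXC chemokines such as Cxcl2. Its level was 0.332, 0.489 and 0.336 CPM in LPS cells, 15.7, 14.8 and 16.8 CPM in IL-10 cells, 89.5, 80.3 and 106 CPM in TGF-β cells, and 18.4, 21 and 19.1 CPM in control cells. No 2 of these groups overlapped in CPM. Cxcr2 fell 53.5-fold with LPS (log2 fold change -5.74, SE 0.21, edgeR adjusted p = 4.54e-14) and rose 4.73-fold with TGF-β (log2 fold change 2.24, SE 0.11, adjusted p = 5.96e-09). With IL-10 the log2 fold change was -0.15 (SE 0.11, edgeR adjusted p = 0.381), which passed only with library totals as the scale (-0.31, adjusted p = 0.0456).

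Cxcr4, the receptor of the homeostatic chemokine Cxcl12, was likewise lowest in LPS cells and highest in TGF-β cells. It had 2.21, 0.768 and 1.43 CPM in LPS cells, 12.3, 13.1 and 12.9 CPM in IL-10 cells, 50.2, 41.1 and 43.7 CPM in TGF-β cells, and 16.8, 13.3 and 16.9 CPM in control cells. The IL-10 libraries were slightly below all controls, and the LPS and TGF-β libraries stood clear on opposite sides. Cxcr4 fell 10.8-fold with LPS (log2 fold change -3.43, SE 0.25, edgeR adjusted p = 5.05e-09) and rose 2.89-fold with TGF-β (log2 fold change 1.53, SE 0.13, adjusted p = 1.13e-06). With IL-10 its log2 fold change was -0.14 (edgeR adjusted p = 0.503).

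Gpr183, also called EBI2, guides immune cells along oxysterol gradients. It had 0.783, 0.419 and 0.244 CPM in LPS cells, 24.5, 17.6 and 16.3 CPM in IL-10 cells, 50.6, 50.5 and 57.5 CPM in TGF-β cells, and 24.1, 26.8 and 23.3 CPM in control cells. LPS cells were nearly devoid of it, TGF-β cells had the most, and the IL-10 and control libraries overlapped. It fell 51.1-fold with LPS (log2 fold change -5.67, SE 0.24, edgeR adjusted p = 4.13e-13) and rose 2.14-fold with TGF-β (log2 fold change 1.10, SE 0.10, adjusted p = 1.93e-06). With IL-10 its log2 fold change of -0.19 did not pass (edgeR adjusted p = 0.337), while without IL-10 library 1 it was -0.38 and passed (adjusted p = 0.0271). Gpr183 lies on chromosome 14 within the span of Ubac2 and shares no exon bases with it.

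Of the 6 receptors measured in both groups, LPS thus raised 1 and lowered 5, beside 28.6% of 11951 genes tested that were called higher and 27.5% that were called lower. Gpr183, among the 5, passed the filter on low counts through the control group, so its call as lower was set by the filter. TGF-β raised 4 of the 6 receptors tested and lowered 1, beside 14.5% and 15.4% of 11798 genes. IL-10 raised 1 of 6 and lowered 0, beside 12.3% and 10.9% of 11790 genes. With library totals in place of TMM, the median log2 fold change of all genes in the IL-10 comparison was -0.16, the calls over all genes were 776 higher and 3163 lower in place of 1447 and 1286, and C3ar1 was still called higher (0.31 on the log2 scale). The edgeR count at an unadjusted p under 0.05 in that comparison was 4089 genes. The 3 comparisons share their control libraries.

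**Figure D2:**
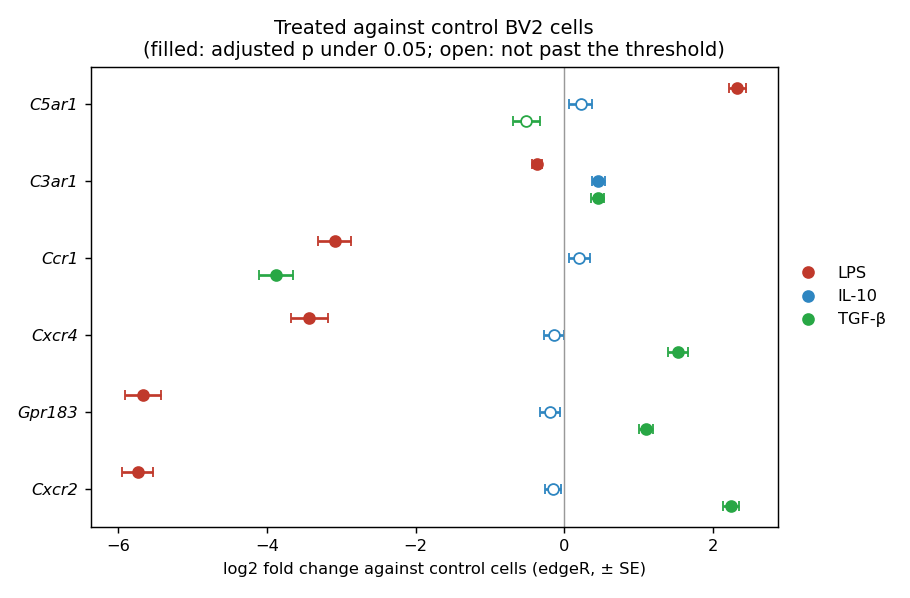
Log2 fold changes of 6 receptors in LPS, IL-10 and TGF-β cells, each against control cells, from edgeR; bars are 1 SE, and filled points have an adjusted p under 0.05. Cxcr2, Gpr183 and Cxcr4 lie at -5.74 to -3.43 with LPS and at 1.10 to 2.24 with TGF-β, while Ccr1 is negative with both.

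Control libraries entered the direct contrasts between treated cells only through the filter on low counts, the scaling and the shared spread. Cxcr2 was 254-fold lower in LPS cells than in TGF-β cells (log2 fold change -7.99, SE 0.17, edgeR adjusted p = 1.62e-17). Gpr183 was 110-fold lower (-6.78, SE 0.24) and Cxcr4 31.3-fold lower (-4.97, SE 0.22) in the same contrast. C5ar1 was 7.17-fold higher in LPS than in TGF-β cells (log2 fold change 2.84, edgeR adjusted p = 8.1e-12). Ccr1 was 1.74-fold higher in LPS than in TGF-β cells (edgeR adjusted p = 0.0237), a call that was lost without LPS library 2 (log2 fold change 0.47, adjusted p = 0.171) or without TGF-β library 2 (0.0835) or 3 (0.095). C3ar1 was 1.77-fold lower in LPS than in TGF-β cells (edgeR adjusted p = 5.68e-07). Of the 6 receptors with counts in every library of both groups, 2 were thus higher and 4 lower, beside 29.3% and 27.8% of 12148 genes. Gpr183, among the 4, was too low in LPS cells to pass the filter through them, so its call was set by the filter. Fpr1, Fpr2 and Ccrl2 entered this contrast through the LPS libraries, so their calls as higher were set by the filter and are not counted. They averaged 10.1, 5.58 and 16.7 CPM in LPS cells, against 0, 0 and 0.0408 CPM in TGF-β cells.

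Between LPS and IL-10 cells the same 6 receptors were all called, 1 higher and 5 lower with LPS, beside 27% and 26.3% of all genes tested. The call of Gpr183 was again set by the filter. Cxcr2 was 48.3-fold lower in LPS cells than in IL-10 cells (log2 fold change -5.59, SE 0.17, edgeR adjusted p = 2.99e-15), Gpr183 44.8-fold, Cxcr4 9.83-fold, Ccr1 9.71-fold and C3ar1 1.78-fold lower. C5ar1 was 4.32-fold higher in LPS cells (edgeR adjusted p = 5.56e-10). Fpr1, Fpr2 and Ccrl2 again passed the filter through the LPS libraries and are not counted, with 0, 0 and 0.0738 CPM in IL-10 cells. TGF-β cells exceeded IL-10 cells in Cxcr2 (5.25-fold), Cxcr4 (3.18-fold) and Gpr183 (2.45-fold). They were below IL-10 cells in Ccr1 (16.9-fold) and C5ar1 (1.66-fold). These 3 higher and 2 lower calls stood beside 18.3% and 20% of all genes, and C3ar1 did not separate TGF-β and IL-10 cells (log2 fold change -0.01, SE 0.09, edgeR adjusted p = 0.956). Ccrl2, near 0 in both, had a log2 fold change of -0.91 (edgeR adjusted p = 0.615), and Fpr1 and Fpr2 had no count in either group.

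Per kilobase of exon, which allows levels of different genes to be compared, the order of the receptors differed between groups. C3ar1 came first in all 4 cell groups, with 38.9 ± 0.234 CPM per kb in LPS cells, 59.5 ± 8.57 in IL-10 cells, 65.7 ± 9.68 in TGF-β cells and 48 ± 3.66 in control cells. In LPS cells it was followed by C5ar1 at 17.1 CPM per kb, then Fpr1 at 7.63 and Ccrl2 at 6.42, whose ranges overlapped, and Fpr2 at 4.3. Cxcr4, Ccr1, Gpr183 and Cxcr2 closed the LPS order at 0.126 to 0.813 CPM per kb. In TGF-β cells C3ar1 was followed by Cxcr2 at 30.2 and Cxcr4 at 24.9 CPM per kb, which overlapped, and then by Gpr183 at 18.3. In control cells Cxcr4 (8.65) and Gpr183 (8.57) overlapped behind it, and Cxcr2, Ccr1 and C5ar1 came after them at 6.4, 5.4 and 3.25 CPM per kb without overlap.

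The genes whose log2 CPM followed each receptor most closely over the 12 cell libraries, among 8453 eligible genes, were named as a description, since the points share treatments and libraries. Cxcl2 had r = 1.000 with Fpr1, and Kcnf1 had r = 0.999 with Fpr2 and 0.997 with Ccrl2. Cxcr2 was followed by Adssl1 (r = 0.996) and Apoe (r = 0.992), and Apoe averaged 3280 CPM in LPS cells, 14200 in IL-10 cells, 45500 in TGF-β cells and 15600 in control cells. Gpr183 was followed by Bmf and Bcar3, both at r = 0.995, and Cxcr4 by Trim63 and Rasgrp3, both at r = 0.993. Ccr1 was closest to the galectin gene Lgals3 (r = 0.982), C5ar1 to Lrrc59 (r = 0.995) and C3ar1 to Nptn (r = 0.941).

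Markers of neutrophils, which also carry Fpr1, Fpr2, C5ar1 and Cxcr2, were examined beside these levels. Of 9 neutrophil markers 4 were listed, and their summed level was 5.58 to 15.6 CPM in LPS cells, 5.64 to 7.24 in IL-10 cells, 4.67 to 8.2 in TGF-β cells and 1.38 to 2.1 in control cells. Endothelial markers, 2 of 4 listed, summed to 797 to 885 CPM in TGF-β cells, against 159 to 174 CPM in control cells. They summed to 63.8 to 79.3 CPM in LPS cells and 111 to 133 CPM in IL-10 cells. Pecam1 was at 0 in control cells, so the sum there came from 1 gene. The part of either list in the receptor levels was not tested.

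Genes that encode or make ligands of the 9 receptors were examined next. Of 26 on the list, 14 were in the tables, and Cxcl12, Rarres2 (chemerin), Hc (complement C5) and the oxysterol enzymes Ch25h and Cyp7b1 were not analysed here. LPS raised 10 of the 13 tested and lowered 2, beside 28.6% and 27.5% of all genes, with a median log2 fold change of 3.44 beside 0.01 for all genes. Cxcl2 and Camp, 2 of the 10, were near 0 in control cells and passed the filter through the LPS group. The Ccr1 ligand genes Ccl3 (1170 ± 117 against 86.1 ± 15.1 CPM) and Ccl9 each rose 12.9-fold with LPS, where Ccr1 itself fell (edgeR adjusted p = 1.61e-08 and 2.23e-12). Cxcl2, a ligand of Cxcr2, was 10.7 ± 2 CPM in LPS cells and 0.0112 ± 0.0195 CPM in control cells.

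The ligand genes of Fpr2 moved in opposite directions with LPS. Saa3, a serum amyloid A, was 4080 ± 113 CPM in LPS cells and 7.2 ± 0.59 CPM in control cells, and Anxa1 fell 3.24-fold (edgeR adjusted p = 2.26e-13). C3, the source of the C3ar1 ligand, rose 8.3-fold (edgeR adjusted p = 1.63e-17) while C3ar1 fell. IL-10 raised 6 of 12 ligand genes tested and lowered 0, beside 12.3% and 10.9% of all genes, with a median of 0.27 beside -0.00 for all genes. Saa3 was 955 ± 187 CPM in IL-10 cells, 148-fold higher than in control cells (edgeR adjusted p = 2.36e-06), C3 rose 2.13-fold (edgeR adjusted p = 4e-10), and Ccl8 was 5.44 ± 0.799 CPM in IL-10 cells with no count in control cells, so that it passed the filter through the IL-10 group.

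TGF-β raised 0 of 11 ligand genes tested and lowered 7, beside 14.5% and 15.4% of all genes, with a median log2 fold change of -1.47 beside 0.01 for all genes. Ccl9 fell 10.6-fold, Ccl4 fell 5.64-fold and Ccl3 fell 3.74-fold (edgeR adjusted p = 1.76e-06, 2.37e-06 and 4.49e-06), in the cells where Ccr1 was lowest.

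**Figure D3:**
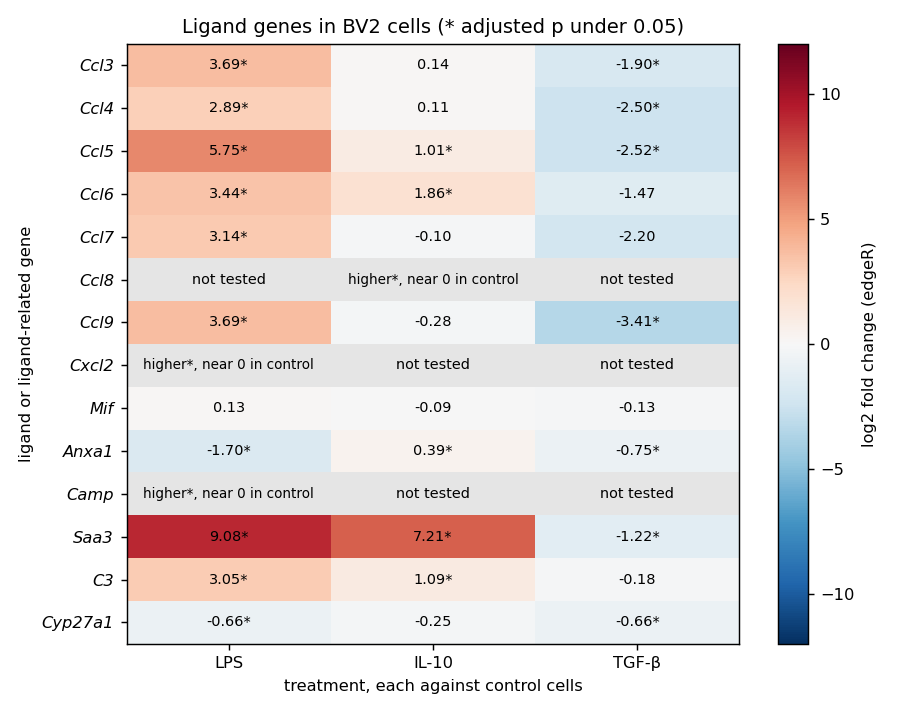
Log2 fold changes (edgeR) of the 14 listed ligand or ligand-related genes in LPS, IL-10 and TGF-β cells, each against control cells; red is higher in treated cells, blue is lower, grey marks genes not tested or near 0 in control cells, and asterisks mark an adjusted p under 0.05. Ccl3 is at 3.69 with LPS and -1.90 with TGF-β, and Ccl9 at 3.69 and -3.41.

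Of 38 other chemotactic receptors 14 were listed. LPS raised 3 of 10 tested and lowered 3, close to the 28.6% and 27.5% called over all genes, with a median log2 fold change of 0.49 beside 0.01 for all genes. The leukotriene B4 receptor gene Ltb4r1 rose 35.8-fold (4.38 ± 0.261 against 0.114 ± 0.0999 CPM, edgeR adjusted p = 2.49e-08) and passed the filter through the LPS group, and the platelet-activating factor receptor gene Ptafr rose 2.37-fold. S1pr1, which senses sphingosine-1-phosphate, fell 5.6-fold and the lysophosphatidylserine receptor gene Gpr34 fell 16.3-fold with LPS. Gpr34, at 0.223 ± 0.0645 CPM in LPS cells, passed the filter through the control group, so its call as lower was set by the filter. IL-10 raised 4 of 11 and lowered 2 (median -0.19), beside 12.3% and 10.9% of all genes. Ltb4r1 was 6.64 ± 1.59 CPM in IL-10 cells and 0.114 ± 0.0999 CPM in control cells (edgeR adjusted p = 1.72e-08). It passed the filter there through the IL-10 group.

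With TGF-β, 5 of the other receptors rose and 2 fell of 10 tested (median 0.58), beside 14.5% and 15.4% of all genes. Cx3cr1, among the 5, was near 0 in control cells and passed the filter through the TGF-β group. C5ar2, the second C5a receptor, which binds C5a without coupling to G proteins, was 10.2 ± 0.813 CPM in TGF-β cells and 0.603 ± 0.173 CPM in control cells. It rose 16.7-fold (edgeR adjusted p = 7.43e-08), in the comparison in which C5ar1 had a log2 fold change of -0.51. S1pr1 rose 2.12-fold and the ADP receptor gene P2ry13 rose 6.14-fold, and Ptafr fell 4.31-fold.

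Genes of the signalling machinery, 29 of 36 listed and all tested, were mixed in each comparison: 12 rose and 9 fell with LPS, 7 rose and 6 fell with IL-10, and 9 rose and 10 fell with TGF-β. Over all genes 28.6% were called higher and 27.5% lower with LPS, 12.3% and 10.9% with IL-10, and 14.5% and 15.4% with TGF-β. The medians of the 29 genes, 0.16, -0.02 and -0.21 on the log2 scale, lay near 0. With LPS, Rgs1, which speeds the shut-off of G proteins, fell 6.23-fold (15 ± 2.42 against 89 ± 9.52 CPM), and the arrestin gene Arrb1 fell 2.58-fold. Gnai2, the main inhibitory G protein α subunit of leukocytes, fell 1.84-fold with LPS (edgeR adjusted p = 5.06e-10). With TGF-β, Rgs1 fell 4.12-fold and the GTPase gene Rac2 fell 1.68-fold, and Rgs2 rose 2.16-fold.

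In EVs the receptors were detected less evenly. All 9 had counts in each LPS EV library, and 2 to 7 had counts in the other EV libraries. Cxcr2 and C3ar1 alone had counts in all 12 EV libraries.

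**Figure D4:**
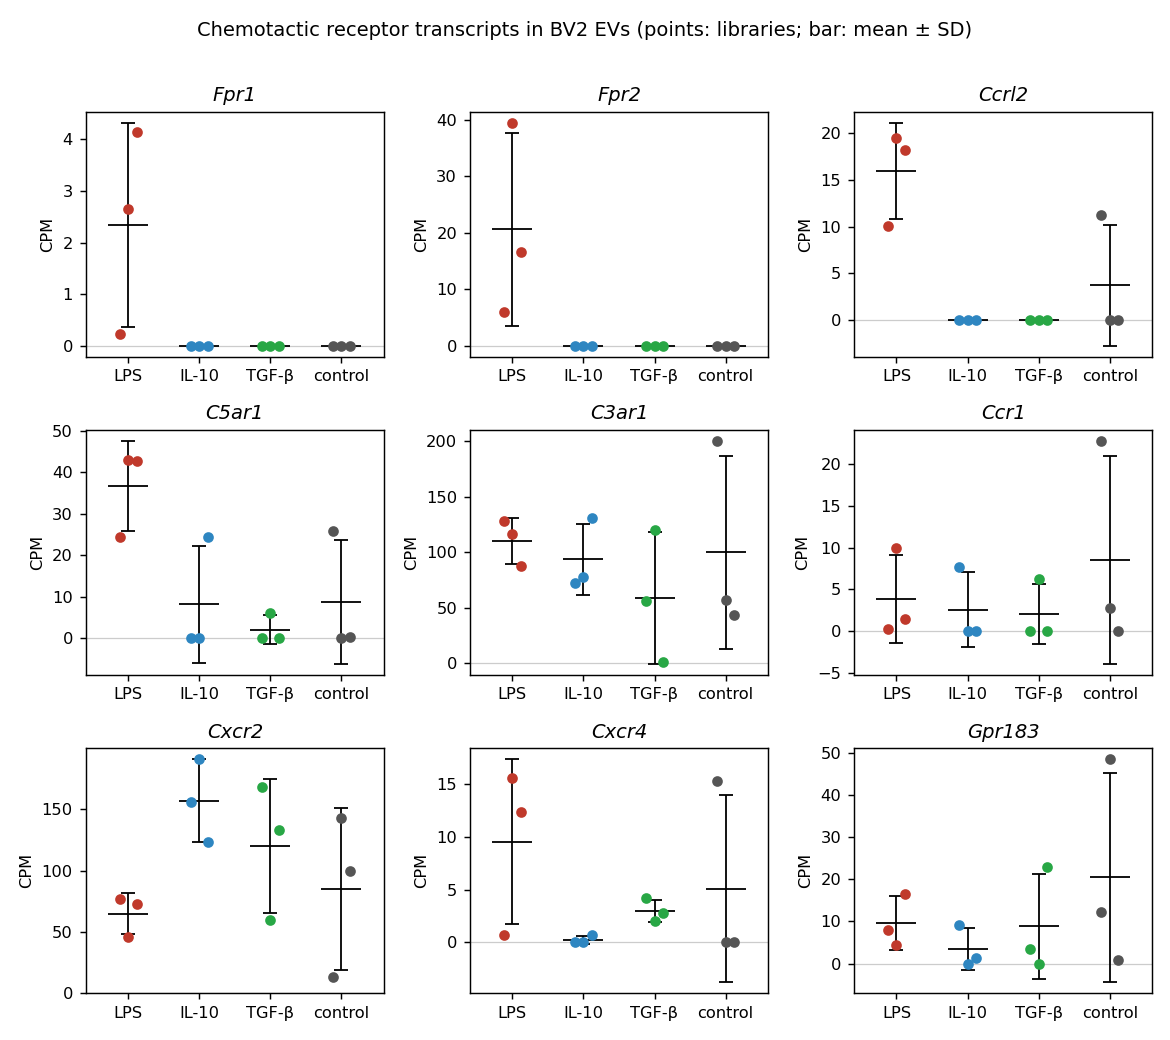
CPM of the 9 receptor genes in EVs of BV2 cells treated with LPS, IL-10 or TGF-β and in EVs of control cells; each point is 1 library, and the bars show the mean ± SD of 3 libraries. Single libraries carry much of the signal outside the LPS group, as for Ccrl2, which has 11.2 CPM in 1 control EV library and no count in the other two.

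Cxcr2 had 76.6, 45.4 and 72.3 CPM in LPS EVs, 156, 191 and 123 CPM in IL-10 EVs, 168, 60 and 133 CPM in TGF-β EVs, and 12.8, 143 and 99.7 CPM in control EVs. Each treated group lay within or overlapped the wide control range, whose low value was library 1. The log2 fold change against control EVs was -0.60 for LPS (SE 0.88, edgeR adjusted p = 0.868), 0.95 for IL-10 (SE 0.84, adjusted p = 1) and 0.71 for TGF-β (SE 0.91, adjusted p = 0.999).

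C3ar1 had 128, 116 and 87.6 CPM in LPS EVs, 72.5, 77.3 and 131 CPM in IL-10 EVs, 55.7, 120 and 0.868 CPM in TGF-β EVs, and 200, 56.5 and 43.6 CPM in control EVs. All treated groups overlapped the controls, with log2 fold changes of 0.02 for LPS, 0.01 for IL-10 and -0.54 for TGF-β (edgeR adjusted p of 0.999 to 1). C5ar1 had 24.3, 43.1 and 42.7 CPM in LPS EVs, 0, 0 and 24.4 CPM in IL-10 EVs, 0, 6.02 and 0 CPM in TGF-β EVs, and 25.8, 0 and 0.143 CPM in control EVs. Its LPS libraries exceeded the controls except for control library 1 (log2 fold change 1.96, SE 2.04, edgeR adjusted p = 0.78), and C5ar1 passed without that library (adjusted p = 0.0286). With 1 control count left, C5ar1 then passed the filter through the LPS group alone, so that call was set by the filter.

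Fpr2 had 5.95, 39.4 and 16.6 CPM in LPS EVs and no count in any other EV library, and it was the only receptor called between LPS and control EVs by edgeR (at least 55-fold higher, adjusted p = 0.025). It too passed the filter through the LPS group alone. The call was lost with all 12 EV libraries in the fit (adjusted p = 0.0798) and without each LPS EV library in turn (0.0713 to 0.106), and in all 4 of these fits 0 genes of the whole table were called higher. Of 12216 genes, 13.9% were called higher and 0.237% lower. Fpr2's mean of 20.6 CPM lay above 26.2% of the 401 genes without a count in LPS cells, so it was within the level that such genes reach in LPS EVs. Fpr1, with 0.229, 2.65 and 4.14 CPM in LPS EVs and no count in other EVs, was not tested.

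Ccrl2 had 10.1, 19.5 and 18.2 CPM in LPS EVs, no count in IL-10 or TGF-β EVs, and 11.2, 0 and 0 CPM in control EVs. It did not pass against control EVs (log2 fold change 1.95, SE 2.10, edgeR adjusted p = 0.791), and it passed without control EV library 1 (adjusted p = 0.0286). No control count of Ccrl2 was then left, so that call was set by the filter. limma-voom with sample quality weights called 4 receptors higher in LPS EVs, which were Fpr2, C5ar1, Ccrl2 and Cxcr4. Gpr183 had 8.01, 4.31 and 16.6 CPM in LPS EVs, 9.13, 0 and 1.39 CPM in IL-10 EVs, 3.51, 0 and 23 CPM in TGF-β EVs, and 12.2, 48.4 and 0.856 CPM in control EVs. Cxcr4 had 0.686, 15.6 and 12.3 CPM in LPS EVs, 0, 0 and 0.696 CPM in IL-10 EVs, 4.16, 2.04 and 2.75 CPM in TGF-β EVs, and 15.3, 0 and 0 CPM in control EVs. Ccr1 had 0.229, 9.94 and 1.43 CPM in LPS EVs, 7.72, 0 and 0 CPM in IL-10 EVs, 0, 6.22 and 0 CPM in TGF-β EVs, and 22.7, 2.83 and 0 CPM in control EVs. The treated and control EV groups overlapped for these 3 receptors. With LPS their log2 fold changes were -1.31 for Gpr183, 0.67 for Cxcr4 and -1.50 for Ccr1 (edgeR adjusted p of 0.821, 0.963 and 0.851).

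Between IL-10 and control EVs 0 of 4 receptors tested were called, and edgeR called 0 of 8992 genes (177 at an unadjusted p under 0.05). The log2 fold changes were -1.43 for Ccr1 and -2.40 for Gpr183, beside those of Cxcr2 and C3ar1 given above, and Cxcr4, C5ar1, Ccrl2, Fpr1 and Fpr2 were too low to test. DESeq2 called 20 genes higher and 25 lower there. Between TGF-β and control EVs 0 of 5 receptors tested were called, and edgeR called 0 of 9093 genes (360 at an unadjusted p under 0.05), while DESeq2 called 46 higher and 31 lower. There Ccr1 had a log2 fold change of -1.77, Cxcr4 of -0.39 and Gpr183 of -0.92 (edgeR adjusted p = 0.999 each), and C5ar1, Ccrl2, Fpr1 and Fpr2 were not tested. Background rates of edgeR calls were thus 0% in both.

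EVs were also set against cells of the same treatment. In LPS samples Cxcr2 stood out: 76.6, 45.4 and 72.3 CPM in LPS EVs against 0.332, 0.489 and 0.336 CPM in LPS cells. No EV library came near the range of the cells. Cxcr2 was 142-fold higher in LPS EVs (log2 fold change 7.15, SE 0.52, edgeR adjusted p = 0.000481), and its mean of 64.8 CPM lay above all 401 genes without a count in LPS cells (100%), whose 90th percentile was 34.8 CPM. In IL-10, TGF-β and control EVs Cxcr2, at 157, 120 and 85.1 CPM, likewise lay above all genes silent in the cells of that group. Gpr183 was 16.9-fold higher in LPS EVs than in LPS cells (edgeR adjusted p = 0.00543), and its mean of 9.63 CPM exceeded 2.7% of the 401 genes. Both Cxcr2 and Gpr183 passed the filter on low counts through the LPS EV group, so their calls as higher were set by the filter.

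C3ar1 fell by 0.86 on the log2 scale in LPS EVs relative to LPS cells (edgeR adjusted p = 0.0288) and Fpr1 fell by 2.40 (adjusted p = 0.0464). Both calls were lost without any 1 of the LPS cell libraries or without LPS EV library 2 (adjusted p of 0.0786 to 0.125), C3ar1 also without LPS EV library 3 (0.0681), and Fpr1 with library totals as the scale (0.0972). Fpr1 had passed the filter through the LPS cell group, as Cxcr2 and Gpr183 had through the LPS EV group. The 2 higher and 2 lower calls stood beside 25.3% and 15.2% of 13113 genes, and their number is not read as a result. Without any 1 of the LPS cell libraries, the genes called lower over the whole table were 1108 to 1141, against 1993 with all of them. Cxcr4, at a log2 difference of 2.31 (edgeR adjusted p = 0.0876), and Fpr2, at 1.49 (0.0906), did not pass, and both passed without LPS EV library 1 (0.00461 and 0.0071). C5ar1 at -0.56, Ccrl2 at -0.37 and Ccr1 at 0.52 did not pass either (edgeR adjusted p of 0.159, 0.497 and 0.719).

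In IL-10 samples Cxcr2 was 10.5-fold higher in EVs than in cells (log2 fold change 3.39, SE 0.36, edgeR adjusted p = 0.0183) and C3ar1 was 2.72-fold lower (adjusted p = 0.0184). These calls stood beside 7.49% and 10.2% of 11447 genes, and both were lost without any 1 of the IL-10 cell libraries (adjusted p of 0.107 to 0.117), where the fold changes stayed at 3.35 to 3.44 and -1.51 to -1.32 on the log2 scale. In those fits 0 genes of the whole table were called in either direction, and over all fits that left out a library the counts ran up to 1929 higher and 2622 lower, against 857 and 1169 with all libraries. Cxcr4 (log2 difference -5.75, edgeR adjusted p = 0.0653), Ccr1 (-2.32, 0.579), Gpr183 (-2.23, 0.48) and C5ar1 (-0.30, 0.949) did not pass with IL-10. Cxcr4 and C5ar1 passed as lower without IL-10 EV library 3 (0.00625 and 0.00722), the EV library that held all their counts, and Ccr1 without library 1 (0.00794), which held all of its counts. With no EV count left, they passed the filter through the cells alone, so these calls were set by the filter.

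In TGF-β samples Cxcr4 was 12.4-fold lower in EVs (4.16, 2.04 and 2.75 CPM) than in cells (50.2, 41.1 and 43.7 CPM; edgeR adjusted p = 0.0151), beside 9.42% of genes higher and 8.99% lower, and the call was lost without any 1 of the TGF-β cell libraries (0.0981 to 0.114). In those fits 300 to 314 genes were called higher and 40 to 47 lower over the whole table, against 1073 and 1024 with all libraries. Cxcr2 did not pass there (log2 fold change 0.69, edgeR adjusted p = 0.399), though without TGF-β EV library 2 it did (0.95, adjusted p = 0.0248). C3ar1 (log2 difference -2.05), Gpr183 (-2.20), C5ar1 (-1.31) and Ccr1 (1.24) did not pass with TGF-β (edgeR adjusted p of 0.404 to 0.734). Without TGF-β EV library 2, which held all EV counts of C5ar1 and Ccr1, both passed as lower (0.00754 and 0.0268). With no EV count left, they passed the filter through the cells alone, so these calls were set by the filter.

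Between control EVs and control cells 0 receptors were called, beside 1.23% and 9.43% of 11427 genes, of which 2458 had an unadjusted p under 0.05. The log2 differences were 2.23 for Cxcr2, -1.07 for C3ar1, -1.71 for Cxcr4, -0.91 for Ccr1, -0.15 for Gpr183 and -0.05 for C5ar1 (edgeR adjusted p of 0.246 to 0.996). Without control EV library 1, 4 of these passed. Cxcr2 was then higher in EVs by 2.67 on the log2 scale, and C3ar1 was lower at -2.02 (edgeR adjusted p = 0.00495 each). Cxcr4 and C5ar1 also passed as lower (0.00495 and 0.00974), with no count and 1 count left in EVs, so these calls were set by the filter. That fit called 1377 genes higher and 2798 lower, against 140 and 1078 with all libraries, and without any 1 of the control cell libraries 0 genes were called.

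**Figure D5:**
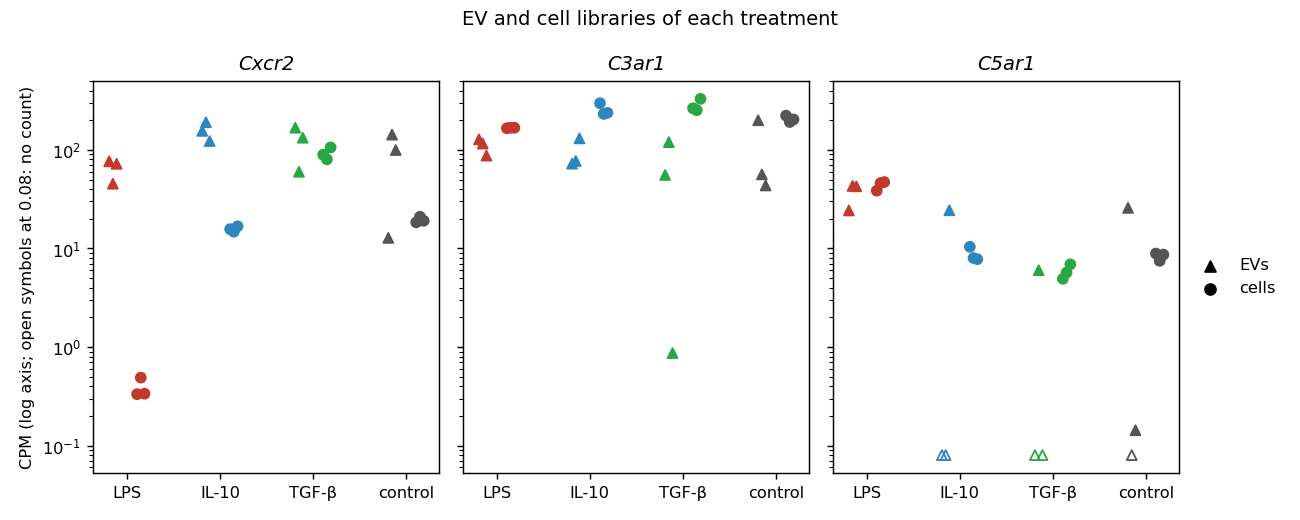
CPM on a log axis of Cxcr2, C3ar1 and C5ar1 in EV libraries (triangles) and cell libraries (circles) of each treatment; open symbols mark libraries without a count. Cxcr2 is at 45.4 to 76.6 CPM in LPS EVs and at 0.332 to 0.489 CPM in LPS cells, whereas C3ar1 and C5ar1 differ far less between the 2 compartments after LPS.

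Whether the LPS effect differed between compartments was tested by the interaction of treatment and compartment. For Cxcr2 the LPS effect in EVs minus that in cells was 4.93 on the log2 scale (SE 1.06, edgeR adjusted p = 0.00911). Cxcr2 was the only receptor of the set called, beside 14.1% of 13263 genes called higher and 2.04% called lower. The effect was -0.60 in EVs and -5.74 in cells in the separate comparisons. Leaving out each library in turn gave 4.41 to 5.63. Of 13 other chemotactic receptors tested in this way, 4 were called higher (S1pr1, Gpr34, Cx3cr1 and Ltb4r2) and 1 lower (S1pr2). Those 4 had no count in control EVs, and their differences of 10.78 to 13.69 were larger than that of Cxcr2. Gpr183 had a difference of 4.24 (SE 1.63, edgeR adjusted p = 0.12), which DESeq2 called (adjusted p = 0.0162). It also passed without control EV library 2 (0.0154) or 3 (0.0455), as did Ccrl2 in the lower direction (0.0372 and 0.031). Without control EV library 1, C3ar1 (1.09, edgeR adjusted p = 0.0476), C5ar1 (0.00102) and Cxcr4 (0.00274) passed as higher. Cxcr4 then had no count and C5ar1 had 1 count in control EVs. With all libraries Cxcr4 had a difference of 4.00, Fpr2 of 2.95, Ccr1 of 1.40, C3ar1 of 0.21, C5ar1 of -0.55 and Ccrl2 of -6.57 (edgeR adjusted p of 0.128 to 0.968), and Fpr1, with counts in LPS libraries alone, gave no usable estimate. For IL-10 and TGF-β 0 receptors were called by edgeR or by DESeq2, beside 0.109% and 0.176% of genes called higher and lower for IL-10 and 0.134% and 0.176% for TGF-β. At an unadjusted p under 0.05 the counts over all genes were 1440 and 1567. DESeq2 called 372 genes higher and 329 lower for IL-10 and 462 higher and 318 lower for TGF-β. The 6 receptors tested had differences of -4.05 (Cxcr4) to 1.14 (Cxcr2) for IL-10 and of -2.06 (Gpr183) to 2.06 (Ccr1) for TGF-β (edgeR adjusted p of 0.648 to 1).

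Ligand genes were followed in the EVs in the same way. Ccl5 was 302 ± 89.6 CPM in LPS EVs and 35.2 ± 23.9 CPM in control EVs (edgeR adjusted p = 0.0255), and Ccl9 was 661 ± 164 and 130 ± 26 CPM (adjusted p = 0.025). Of 11 tested 3 were called higher in LPS EVs and 0 lower, beside 13.9% and 0.237% of all genes. Ccl6, the third, was 10.5 ± 3.72 CPM in LPS EVs with no count in control EVs, and thus passed the filter through the LPS group. All 3 calls were lost with all 12 EV libraries in the fit and without each LPS EV library in turn, where 0 genes of the table were called higher. Saa3 was 5910 ± 1970 CPM in LPS EVs and 1040 ± 626 CPM in control EVs, which missed the threshold (edgeR adjusted p = 0.0617). In control cells Saa3 was 7.2 ± 0.59 CPM, 143-fold lower than in control EVs (edgeR adjusted p = 0.0216). Ccl9 was also higher in control EVs (4.59-fold, edgeR adjusted p = 0.0216). Of 10 ligand genes tested there 2 were called higher and 1 lower, beside 1.23% and 9.43% of all genes. Fits without 1 library called 0 to 1377 genes higher there. Saa3 was 356 ± 449 CPM in TGF-β EVs and 3.08 ± 0.166 CPM in TGF-β cells. The source of these EV counts was not tested.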

How the data were processed

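The 6 deposited tables hold raw counts per gene, as the authors made them, with 3 treated and 3 control libraries in each table. Control columns repeat unchanged among the tables of cells and among those of EVs, which gives 24 distinct libraries, with 0 columns unmapped. The columns carry no replicate pairing. No listed gene has fewer than 240 counts in all. Per the labels' protocols, total RNA was made into cDNA with SMART-Seq v4 and Nextera XT. DESeq2 is named, without a version, in the submitters' processing notes. Aligner, counter, genome build and strand setting were not given in the sources used here. Recipient cells given EVs, mentioned in the series text, are not analysed here.

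Groups were compared with edgeR 4.0.16 in R 4.3.3 (TMM scaling, filterByExpr, robust quasi-likelihood fit) on the libraries concerned, with direct contrasts between treatments in a fit of the 12 libraries of cells and compartment differences as an interaction. CPM (counts scaled to the library total) were computed here, and a group with no count was given 3 counts per library for bounds. The procedure was tested on simulated data. Other settings tried were DESeq2 1.42.0, RLE scaling, limma-voom (limma 3.58.1), no filter beyond 1 count, all 12 libraries of a compartment, library totals as the scale (for treatments against controls added after the data were seen) and leaving out each library. Exon lengths and positions came from GENCODE M21 (GRCm38) and promoter windows from RefSeq (GRCm38.p6), where all 9 receptors matched by symbol with 11 windows. Genes most like a receptor were the 2 with the highest Pearson r of log2(CPM + 0.5) among genes with at least 10 CPM in a cell group. Receptors are given in each comparison in which they were tested, by value or by range, together with up to 4 genes per list in order of adjusted p and others chosen after their values were seen. A gene that this order includes is not reported here. The members and lists were chosen with earlier results of these data known. Figures were drawn with Python 3.11.15 and matplotlib 3.10.9.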

Additional observations from a re-analysis of the deposited data

Results flagged for a closer look

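The response of Cxcr2 to LPS differed between EVs and cells. The LPS effect in EVs minus the LPS effect in cells was 4.93 on the log2 scale (SE 1.06, edgeR adjusted p = 0.00911), from an interaction of treatment and compartment over 12 libraries. Such a difference was not particular to Cxcr2: of 13 other chemotactic receptors tested, 4 were called higher and 1 lower. All 3 LPS cell libraries were below all 3 control cell libraries, at 0.332 to 0.489 CPM against 18.4 to 21 CPM. The LPS EV libraries, at 45.4 to 76.6 CPM, lay inside the range of the control EV libraries, 12.8 to 143 CPM. LPS EV libraries also held counts for 98.5% of the genes silent in LPS cells in all 3 libraries. Such genes were listed through counts in other libraries, LPS EVs among them. The 90th percentile of those genes was 34.8 CPM, and Cxcr2 averaged 64.8 CPM in LPS EVs. In the other EV groups too, Cxcr2 lay above all genes silent in the cells of the group. The part of LPS EV counts of silent genes in the Cxcr2 difference was not tested.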

How the results depend on the processing

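No paired analysis was possible because neither the labels nor the columns tie libraries of different groups together. In cells, all 9 LPS calls against control and all 5 TGF-β calls kept direction and significance under RLE scaling, DESeq2, limma-voom, no filter, all 12 libraries, library totals and leaving out each library. For Fpr1, Fpr2 and Ccrl2, which passed the filter through the LPS group alone, that outcome was fixed in advance and is not read as support. The same holds for Gpr183 with LPS, which passed the filter through the control group. The causes of the changes listed next were not tested. Receptors called lower with TGF-β were 2, not 1, with DESeq2, limma-voom and all 12 libraries, and 1 to 2 on leaving out a library. Receptors called lower with IL-10 were 1, not 0, with library totals, and 0 to 1 on leaving out a library, where genes called lower ranged over 848 to 1329 (848 without control library 1). Library totals gave 776 genes higher and 3163 lower. Leaving out a library gave C3ar1 -0.11 to 0.10 and Ccrl2 -4.50 to 1.22 for TGF-β against IL-10 cells (log2).

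Among EVs, genes called higher with LPS were 0 with all 12 libraries, 2989 with limma-voom and 0 to 2481 on leaving out a library (0 without LPS EV library 1, 2 or 3). Genes called lower were 0, 49 and 0 to 118 in the same fits, 225 with DESeq2 and 14 with library totals, against 29. Receptors called higher were 0 with all 12 libraries, 4 with limma-voom and 0 to 3 on leaving out a library (3 without control EV library 1). Those 3 passed the filter through the LPS group alone, so their calls were set by the filter. DESeq2 called 20 genes higher and 25 lower with IL-10 and 46 higher and 31 lower with TGF-β, where edgeR called 0. For LPS, limma-voom turned Ccr1 to 1.07 and Gpr183 to 0.32, and for TGF-β Cxcr4 to 4.20; library totals turned C3ar1 with IL-10 to -0.11. On leaving out a library, log2 fold changes ranged for LPS over -0.33 to 0.89 (C3ar1), -3.42 to 0.85 (Ccr1), -1.12 to 0.07 (Cxcr2) and -1.95 to 0.53 (Gpr183). They ranged for IL-10 over -0.29 to 0.92 (C3ar1) and -9.19 to 0.98 (Ccr1), and for TGF-β over -1.53 to 0.33 (C3ar1), -9.03 to 0.60 (Ccr1), -0.97 to 7.44 (Cxcr4) and -3.40 to 0.96 (Gpr183).

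For EVs against cells, receptors called higher and lower on leaving out a library were 2 to 4 and 0 to 2 with LPS, 0 to 1 and 0 to 3 with IL-10, 0 to 1 and 0 to 3 with TGF-β, and 0 to 1 and 0 to 3 in controls. DESeq2 called 4 higher with LPS and 2 lower with IL-10, and library totals gave 1 lower with LPS. Over all genes DESeq2 called 1668 higher and 1933 lower with IL-10 (857 and 1169 by edgeR), 1640 and 2051 with TGF-β (1073 and 1024), and 997 higher in controls (140). The log2 difference of C5ar1 in controls, -0.05, was 0.00 with DESeq2, 0.01 with RLE and 0.06 with library totals. Leaving out a library gave C5ar1 -6.65 to 0.52 and Gpr183 -2.03 to 0.40 in controls, C5ar1 -10.65 to 0.27 with IL-10, and Ccr1 -1.31 to 1.04 with LPS and -7.42 to 1.81 with TGF-β. For differences of the treatment effect between compartments, receptors called with LPS were 1 to 4 higher and 0 to 1 lower on leaving out a library, and 2 higher with DESeq2. Such ranges were for LPS -0.15 to 1.09 (C3ar1), -1.14 to 6.02 (C5ar1), -0.28 to 3.80 (Ccr1) and -9.50 to 2.64 (Ccrl2). For IL-10 they were -0.77 to 0.46 (C3ar1), -10.55 to 6.28 (C5ar1), -10.60 to 0.90 (Ccr1) and -9.44 to 5.51 (Cxcr4), and for TGF-β -9.86 to 5.25 (C5ar1), -6.48 to 4.52 (Ccr1) and -2.62 to 7.46 (Cxcr4). Over all genes, DESeq2 called 417 lower with LPS in place of 271, 372 higher and 329 lower with IL-10 in place of 13 and 21, and 462 higher and 318 lower with TGF-β in place of 16 and 21. On leaving out a library these counts ran over 86 to 699 lower with LPS, 0 to 118 higher and 2 to 189 lower with IL-10, and 1 to 232 higher and 2 to 340 lower with TGF-β. The depth of single EV libraries leaves levels under 0.167 to 0.994 CPM undetected.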

Other observations

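Several chemotactic receptors outside the set had counts in LPS EVs that the cells did not match. Ackr3, the scavenger of Cxcl12, had no count in LPS or control cells, averaged 27.7 ± 12.6 CPM in LPS EVs (SD, n = 3) and had no count in control EVs (edgeR adjusted p = 0.025). Ltb4r2, a leukotriene B4 receptor of low affinity, averaged 23.7 ± 22.7 CPM in LPS EVs with no count in control EVs (edgeR adjusted p = 0.0274). Both had to differ in this test, since they passed the filter on low counts through the LPS group alone. Their calls stood beside 13.9% of genes called higher, and were lost with all 12 EV libraries in the fit and without each LPS EV library in turn, where 0 genes of the table were called higher. Both means are close to the 23.3 CPM median of the 401 genes without a count in LPS cells. S1pr2, a sphingosine-1-phosphate receptor that restrains migration, was 58.1 ± 15.8 CPM in LPS EVs and 117 ± 11.2 CPM in control EVs, and this did not pass (edgeR adjusted p = 0.142).

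In the cells, Tmem119, a microglial marker, averaged 129 ± 10.3 CPM with TGF-β, against 11.4 ± 2.06 CPM in control cells. Cx3cr1, the fractalkine receptor that steers microglia towards neurons, averaged 8.13 ± 6 CPM with TGF-β and 0.081 ± 0.0845 CPM in control cells (edgeR adjusted p = 0.00209). Cx3cr1 passed the filter on low counts through the TGF-β group alone, so it had to differ in this test. The spread of Cx3cr1 over the TGF-β libraries was nearly as large as its mean.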
